A study of Mus musculus with 6 samples.

Results

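Genes of G2 and mitosis were measured in mouse CD8+ T cells by RNA-seq, across a Dusp2 knockout and across a sort on the surface glycoprotein CD44. A list of 58 genes was drawn up by name, and the 53 whose mean over the 6 libraries reached 1 FPKM are described, out of 18122 rows in the deposited table. FPKM divides the fragments counted for a gene by its length and by the mapped fragments of the library. The genes fall into 5 role groups, with 16 cyclins, kinases and regulators of the anaphase switch, 13 spindle motors and spindle proteins, 13 proteins of the kinetochore and spindle checkpoint, 2 of cytokinesis and 9 of mitotic chromosome structure.

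The cells came from lymph nodes of mice lacking Dusp2 (Dusp2KO), a phosphatase that acts on MAP kinases, and of wild-type (WT) mice. Both genotypes were cultured for 18 h on coated anti-CD3 antibody (1 µg/mL) with anti-CD28 antibody (1 µg/mL) and the cytokines IL-4, at 20 ng/mL, and IFN-α, at 50 ng/mL, a mixture used to obtain virtual memory T cells, and were then sorted. The groups were Dusp2KO CD44hi (n = 2 libraries), WT CD44hi (n = 2), Dusp2KO CD44lo (n = 1) and WT CD44lo (n = 1), where CD44hi stands for the very high fraction. The sources used here do not give the age of the mice, the knockout allele or whether libraries came from separate or pooled animals, and p-values then reflect the spread between these libraries alone, which may be technical. One protocol text names T cell deletion of Rpa1 instead of Dusp2, and the sample descriptions name 10X Genomics, a maker of single-cell kits, although each deposited column holds 1 value per gene. The libraries follow a Dusp2 knockout, since Dusp2 had 0 to 3 reads in each Dusp2KO library, against 82.6 to 116 FPKM in the WT libraries.

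Commitment to mitosis is set by cyclin A and cyclin B bound to the kinase CDK1, and by the Aurora and Polo kinases. Motors then build the spindle, kinetochores attach chromosomes to it, a checkpoint holds the cell until attachment is complete, and the anaphase-promoting complex with CDC20 destroys cyclin B. Most of these genes are transcribed in G2 through promoters that carry a CHR element (cell cycle genes homology region) bound by the MuvB complexes with B-MYB and FOXM1, often beside CCAAT boxes bound by NF-Y. Naive T cells are quiescent and carry little of this programme, which starts after activation.

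The promoters show what the members share beyond their names. For 44 of the 53 members RefSeq promoters of assembly GRCm38.p6 were matched by symbol, each window running from 250 bases before to 50 after the start. A CHR was searched as TTTGAA or TTCGAA and a CCAAT box as CCAAT, both on either strand, and the end letters of a CHR and a CCAAT box can be shared. No promoter was matched for Aurkb, Ccna2, Cdca2, Foxm1, Kif20a, Pbk, Smc4, Spc24 and Tpx2. A CHR was present for 35 of the 44 members (79.5%), against 16.4% of the 7588 tested genes with a promoter and 21.7% of all 27025 genes of the promoter table. A CCAAT box was present for 32 members (72.7%), against 43.5% of the tested genes and 41.1% of all genes. Both were present for 30 members (68.2%), against 6.89% of the tested genes. Genes with several starts counted as holding a motif if any window did, and by window the CHR shares were 80.4% for members, 14.1% for tested genes and 19.2% for the whole table. A match describes the letters in the window and not a binding site.

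The 150 bases before the start are printed for 8 members that span the responses described below, from Mki67 and Top2a, with large genotype differences, to Cdc20 and Bub3, with none that passed. Capitals mark CHR and CCAAT letters on either strand, so ATTGG is a CCAAT box and TTCAAA a CHR read from the other strand. Positions are Mki67 at chr7:135716380-135716529 (minus strand), Top2a at chr11:99024190-99024339 (minus strand), Kif11 at chr19:37376232-37376381 (plus strand), Cdk1 at chr10:69352913-69353062 (minus strand), Ccnb1 at chr13:100786487-100786636 (minus strand), Ube2c at chr2:164769779-164769928 (plus strand), Cdc20 at chr4:118437344-118437493 (minus strand) and Bub3 at chr7:131560220-131560369 (plus strand), all in GRCm38.p6, which is not the mm39 build of the submitters' processing notes.
Mki67: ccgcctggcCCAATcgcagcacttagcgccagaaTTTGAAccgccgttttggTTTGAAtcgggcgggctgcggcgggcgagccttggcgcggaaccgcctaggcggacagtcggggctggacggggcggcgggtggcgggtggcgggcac
Top2a: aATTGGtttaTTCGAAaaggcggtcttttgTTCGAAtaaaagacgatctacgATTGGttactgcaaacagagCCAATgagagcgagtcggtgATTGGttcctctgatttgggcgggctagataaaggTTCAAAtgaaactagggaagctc
Kif11: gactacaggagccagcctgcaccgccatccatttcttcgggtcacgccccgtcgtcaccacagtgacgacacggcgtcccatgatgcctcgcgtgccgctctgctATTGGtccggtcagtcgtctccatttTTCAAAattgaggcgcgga
Cdk1: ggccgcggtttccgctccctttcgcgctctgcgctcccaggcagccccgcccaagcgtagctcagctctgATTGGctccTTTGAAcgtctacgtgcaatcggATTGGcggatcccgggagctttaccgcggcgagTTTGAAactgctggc
Ccnb1: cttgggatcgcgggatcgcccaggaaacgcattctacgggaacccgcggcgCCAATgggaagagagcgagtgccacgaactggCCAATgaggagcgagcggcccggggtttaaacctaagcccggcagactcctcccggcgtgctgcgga
Ube2c: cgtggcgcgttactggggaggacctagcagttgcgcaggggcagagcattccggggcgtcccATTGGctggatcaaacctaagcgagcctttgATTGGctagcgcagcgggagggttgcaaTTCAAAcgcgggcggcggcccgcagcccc
Cdc20: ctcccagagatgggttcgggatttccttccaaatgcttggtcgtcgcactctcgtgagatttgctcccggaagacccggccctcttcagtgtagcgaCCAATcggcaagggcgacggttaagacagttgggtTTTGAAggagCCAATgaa
Bub3: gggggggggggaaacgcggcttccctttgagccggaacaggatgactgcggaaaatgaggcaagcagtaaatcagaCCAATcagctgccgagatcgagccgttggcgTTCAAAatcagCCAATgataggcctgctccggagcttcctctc
Top2a holds 3 CHR and 4 CCAAT matches in this stretch, Cdk1 holds 2 of each, and Ccnb1 holds 2 CCAAT boxes and no match to TTTGAA or TTCGAA. Other forms of the CHR were not searched. Bub3, which lay between 18.9 and 23.3 FPKM in the 6 libraries, holds 1 CHR and 2 CCAAT boxes. Among the 35 members with a CHR the log2 fold change of Dusp2KO over WT in CD44hi ran from -0.41 to 1.35 with a median of 0.47. Among the 9 with no match to the CHR forms searched (Birc5, Ccnb1, Cenpe, Mad2l1, Melk, Ncaph, Nuf2, Nusap1 and Plk4) it ran from 0.24 to 0.98 with a median of 0.54.

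**Figure D1:**
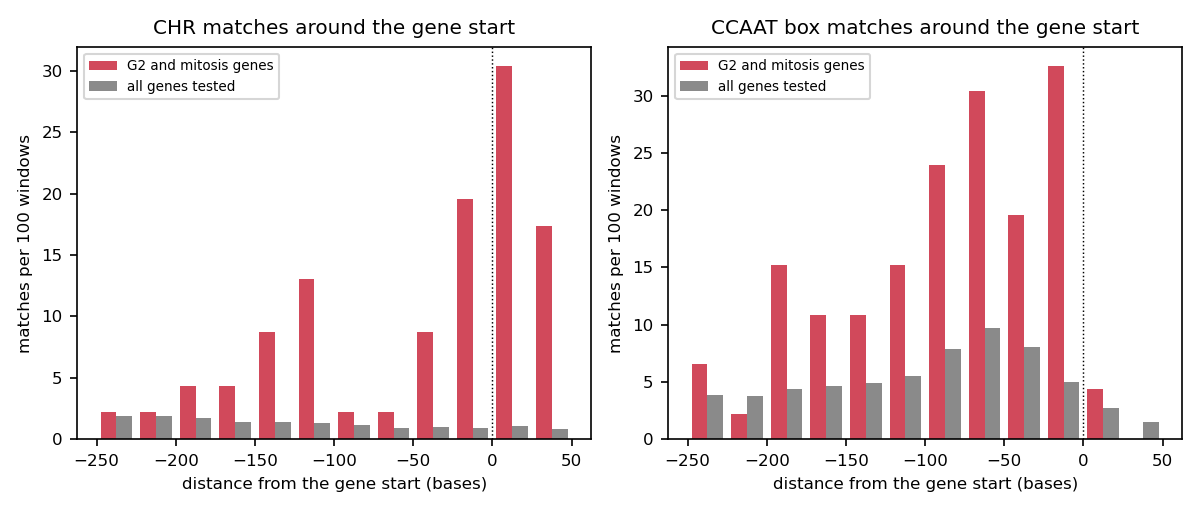
Matches to the CHR (left) and the CCAAT box (right) per 100 promoter windows, in steps along the distance from the gene start in bases, for G2 and mitosis genes (red) and all genes tested (grey). Members' CHR matches were most frequent just after the start, at 30.4 per 100 windows against 1.05 for tested genes, and their CCAAT matches just before it, at 32.6 against 4.99.

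Reads recovered from the FPKM steps numbered 23490008 in the Dusp2KO CD44lo library and 42816073 to 55830235 in the others. The CD8 T cell genes Cd8a, Cd8b1, Cd3e, Cd3g and Cd2 summed to between 839 and 1243 FPKM, and Cd4 reached at most 0.0228 FPKM. Cd44 was at 65.3 to 79.9 FPKM in the CD44hi libraries and at 1.33 and 1.43 FPKM in the CD44lo libraries. Of 5 B cell markers fixed as a list, Cd79a and Cd79b had values here and summed to 22.4 and 24.7 FPKM in CD44hi and 11.4 FPKM in CD44lo cells of Dusp2KO mice, against 12.6 and 10.1 FPKM in CD44hi and 7.20 FPKM in CD44lo cells of WT mice, with Cd79a itself at no more than 0.379 FPKM. Myeloid markers, 5 of 7 with values, summed to 1.45 and 1.21 FPKM in CD44hi and 0.480 FPKM in CD44lo cells of Dusp2KO mice, against 1.68 and 1.46 FPKM in CD44hi and 0.372 FPKM in CD44lo cells of WT mice. Sums over 3 CD4 T cell markers lay between 0.220 and 0.589 FPKM, erythroid markers reached at most 0.170 FPKM, and NK cell markers, 2 of 3 with values, summed to 66.3 to 92.3 FPKM. Nearly all of the NK cell sum was Eomes, a transcription factor that memory CD8 T cells also express, and Klrb1c reached at most 0.0466 FPKM. Xist, the RNA of the inactive X chromosome, had 15308 and 14690 reads in the Dusp2KO CD44hi libraries and 0 to 5 in each other library, while the Y-linked Eif2s3y was at 13.4 to 20.3 FPKM in all 6. The Dusp2KO CD44hi libraries therefore stood apart from the Dusp2KO CD44lo library as well as from WT, and differences between animals and differences by fraction or genotype cannot be told apart. The genotype differences within CD44lo and the fold changes between fractions within WT use neither of these libraries. Both libraries still enter the mean FPKM filter and the spread behind the p-values of the fraction comparison within WT.

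All 53 members together took 0.284% and 0.286% of the reads in CD44hi and 0.114% in CD44lo cells of Dusp2KO mice, against 0.197% and 0.185% in CD44hi and 0.117% in CD44lo cells of WT mice. Both CD44hi groups were thus above both CD44lo libraries, and Dusp2KO CD44hi was the highest. In bulk RNA, fewer cells in G2 or mitosis and less RNA per cell cannot be told apart. All 53 members reached 1 FPKM in each of the 4 CD44hi libraries, whereas 36 did in the CD44lo library of Dusp2KO and 27 in that of WT. The 15 members below 1 FPKM in both CD44lo libraries passed the filter through the CD44hi libraries alone, so their higher level in CD44hi was in part set by the filter. The same held for Ccna2, Plk1, Cdca3, Ckap2l, Kif15 and Ncapg, which were above 1 FPKM in 1 CD44lo library and below it on average over both. Just inside it lay Kif23 with a mean of 1.20 FPKM and Hmmr with 1.25, and just outside it Prc1 with 0.966 and Aspm with 0.657.

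**Figure D2:**
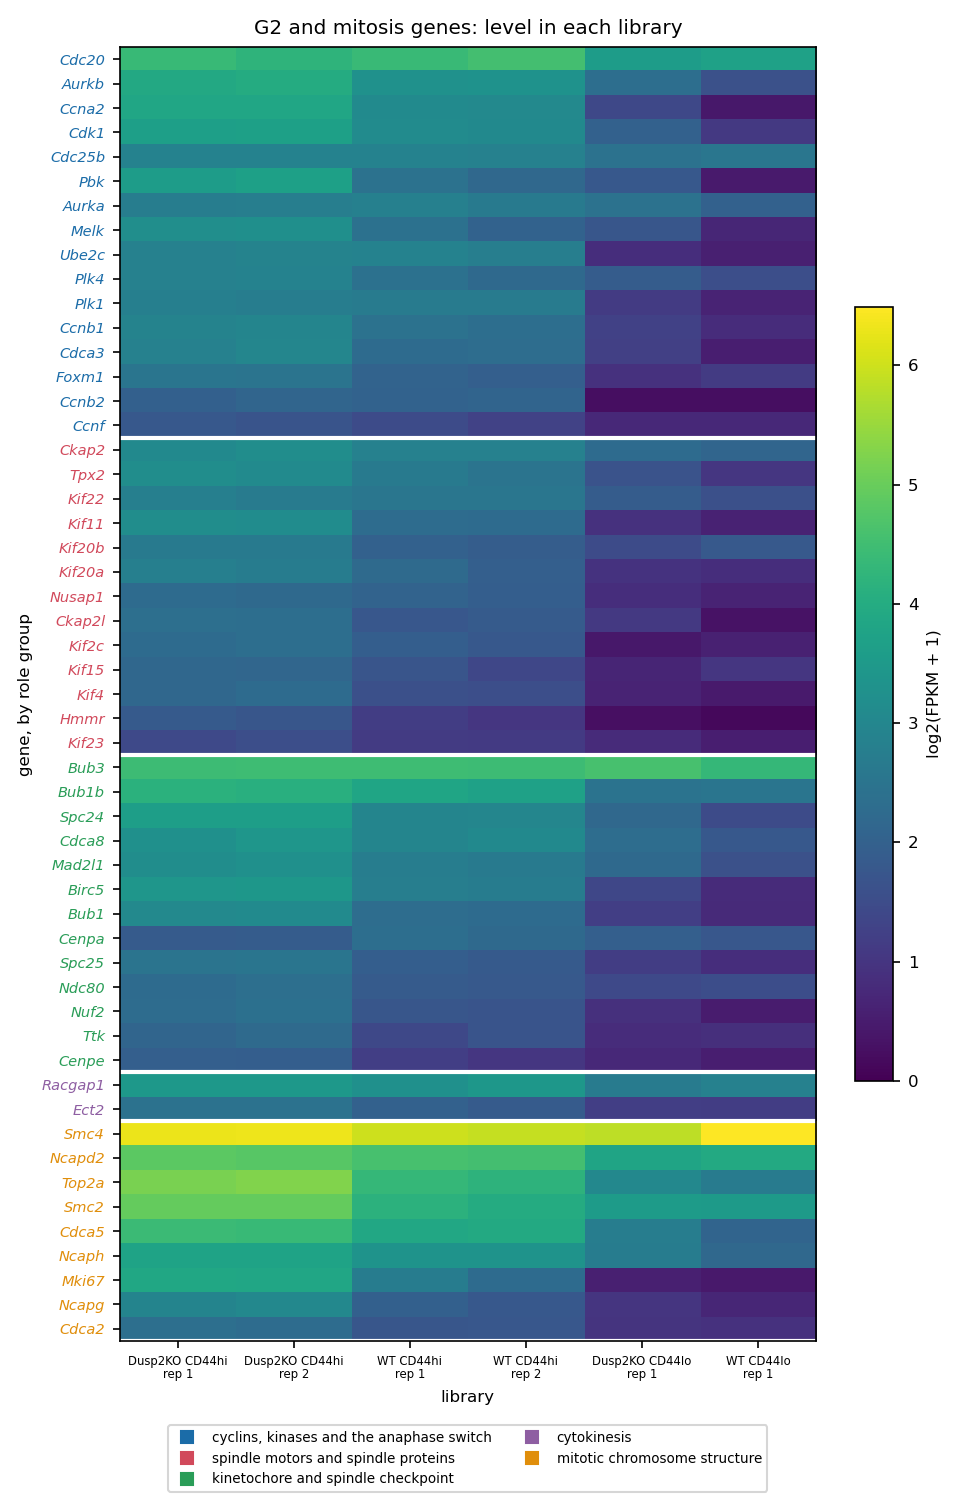
Heat map of log2(FPKM + 1) for the 53 members (rows, by role group and falling mean) in the 6 libraries (columns). Most rows are brightest in the 2 Dusp2KO CD44hi columns and darkest in the 2 CD44lo columns, while Smc4 reached its highest value, 88.7 FPKM, in WT CD44lo.

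The 5 genes outside the filter are given by their values alone. Prc1, which bundles the central spindle, had 1.42 and 1.59 FPKM in CD44hi and 0.290 FPKM in CD44lo cells of Dusp2KO mice, against 1.41 and 0.890 FPKM in CD44hi and 0.191 FPKM in CD44lo cells of WT mice. Aspm, a spindle pole protein, had 1.33 and 1.39 FPKM in the Dusp2KO CD44hi libraries, against 0.653 and 0.434 FPKM in the WT CD44hi libraries. Cenpf, a kinetochore protein, had 0.846 and 0.874 FPKM in the Dusp2KO CD44hi libraries, against 0.356 and 0.414 FPKM in the WT CD44hi libraries. Anln, the scaffold of the contractile ring, had 0.997 and 0.714 FPKM in the Dusp2KO CD44hi libraries, against 0.538 and 0.446 FPKM in the WT CD44hi libraries. Prc1, Aspm, Cenpf and Anln were higher in Dusp2KO CD44hi without overlap. Of the genes inside the filter 32% were, and no share was counted for genes outside it. The phosphatase gene Cdc25c did overlap, with 0.675 and 0.815 FPKM in the Dusp2KO CD44hi libraries, against 0.752 and 0.624 FPKM in the WT CD44hi libraries.

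The first comparison asked how loss of Dusp2 relates to these genes in CD44hi cells. Of the 53 members, 41 rose in Dusp2KO, 1 fell and 11 did not pass (limma with Benjamini-Hochberg adjustment over 9691 genes, adjusted p under 0.05). Over all genes tested 26.7% were called, 12.9% higher and 13.8% lower. Kif23, Hmmr and Cenpe reached a mean of 1 FPKM only with the Dusp2KO CD44hi libraries. Their places among the 41, and among the 46 without overlap given below, were therefore in part set by the filter. So were those of Hmmr and Cenpe among the 8 members with a ratio of 2 or more. The members' median log2 fold change was 0.54, on the log2(FPKM + 1) scale that understates changes of low genes, against -0.02 for all genes tested. In ratios of mean FPKM the members ran from 0.690 to 2.85 with a median of 1.57. A ratio of 2 or more was reached by 8 members, all higher in Dusp2KO, where 2.52% of all genes differed that much, 1.31% higher and 1.21% lower. Libraries of the genotypes did not overlap for 46 members that were higher and 2 that were lower in Dusp2KO, where 32% of all genes were higher and 36.2% lower without overlap. With no filter on low values limma called 0 of the 58 listed genes and 2 of all 18122, although 46 of the 58 had an unadjusted p under 0.05, and limma voom on the recovered reads called 43 of the 53. An additive model that also used the CD44lo libraries called 24 members, all among the 42, with 1008 calls over all genes, against 2586 in the main fit. Of the genes given in every library below it did not call Mki67, Ckap2, Cenpa, Bub1b, Ect2, Smc4 or Ncapd2. Without one of the Dusp2KO CD44hi libraries the count was 30 or 29, and Bub1b, Cdca8, Cenpa, Ckap2, Ect2, Foxm1, Kif23, Kif2c, Ncapd2, Ncaph and Smc4 were lost in both cases.

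Some measures of the libraries moved with this difference. Mitochondrial transcripts took 2.73% and 2.94% of reads in the Dusp2KO libraries, against 2.15% and 2.03% in the WT libraries, and their part in the result was not tested. Differences across all tested genes followed gene length (Spearman rho = 0.27 over 9688 gene symbols, which are not independent replicates), as did the difference between the WT CD44hi replicates (0.32). With that trend removed, 41 members were higher and 1 lower, as without the removal. Xist moved with the genotype as well, at 15308 and 14690 reads in the Dusp2KO CD44hi libraries and 5 in each WT CD44hi library. Its part in the result was not tested. B cell and myeloid marker sums are given above, and their part was not tested.

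Among cyclins, kinases and the anaphase switch, 9 of 16 genes rose and 7 did not pass, with a median of 0.51. Pbk, a mitotic MAP kinase kinase-like kinase, had 11.1 and 11.9 FPKM in CD44hi and 2.48 FPKM in CD44lo cells of Dusp2KO mice, against 4.49 and 3.58 FPKM in CD44hi and 0.373 FPKM in CD44lo cells of WT mice. In both fractions it was higher in Dusp2KO, and in CD44hi the log2 fold change was 1.32 (SE 0.109, limma adjusted p = 0.0013). Pbk and Cdca2 lie on chromosome 14, where 10.4% of 422 tested genes differed 2-fold or more in CD44hi, against 0.605% of the 9262 on other chromosomes, and the part of that chromosome in the Pbk and Cdca2 values was not tested. Ccna2, the cyclin A of S and G2 phase, had 13.3 and 13.4 FPKM in CD44hi and 1.65 FPKM in CD44lo cells of Dusp2KO mice, against 7.55 and 7.29 FPKM in CD44hi and 0.346 FPKM in CD44lo cells of WT mice. Its CD44hi groups lay well apart (log2 fold change 0.77, SE 0.076, limma adjusted p = 0.0020). Aurkb, the kinase of the chromosomal passenger complex, had 14.2 and 14.8 FPKM in CD44hi and 4.08 FPKM in CD44lo cells of Dusp2KO mice, against 8.79 and 8.93 FPKM in CD44hi and 2.05 FPKM in CD44lo cells of WT mice (log2 fold change in CD44hi 0.65, SE 0.072, limma adjusted p = 0.0028). The others that rose were the kinase Melk (0.98), Cdca3, an adaptor for degradation of the CDK1 inhibitor WEE1 (0.62), Cdk1 itself (0.59), the centriole kinase Plk4 (0.54), the cyclin B gene Ccnb1 (0.53) and the transcription factor Foxm1 (0.50).

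The genes of this group that did not pass include the activator and the enzyme of the anaphase switch. Cdc20, which activates the anaphase-promoting complex, had 19.6 and 17.6 FPKM in CD44hi and 11.0 FPKM in CD44lo cells of Dusp2KO mice, against 20.1 and 22.2 FPKM in CD44hi and 12.1 FPKM in CD44lo cells of WT mice. Its Dusp2KO libraries were both below the WT libraries in CD44hi, by a difference that did not pass (log2 fold change -0.18, SE 0.083, limma adjusted p = 0.16) and passed without WT CD44hi replicate 1 (limma adjusted p = 0.049). Ube2c, the ubiquitin-conjugating enzyme of that complex, had 6.16 and 6.41 FPKM in the Dusp2KO CD44hi libraries, against 6.32 and 5.81 FPKM in the WT CD44hi libraries. The Polo kinase Plk1 was at 0.08, the spindle pole kinase Aurka at 0.03, the CDK1-activating phosphatase Cdc25b at 0.01, Ccnb2, the other B-type cyclin, at -0.02, and Ccnf, the cyclin of an SCF ubiquitin ligase, at 0.37. Standard errors of these 5 log2 fold changes lay between 0.0737 and 0.112.

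Among spindle motors and spindle proteins, 11 of 13 rose and 2 did not pass, with a median of 0.57. All 13 were higher in Dusp2KO CD44hi without overlap, as were 32% of all tested genes. Kif23 and Hmmr reached the filter only with the Dusp2KO CD44hi libraries, so the counts of this group were in part set by it. Tpx2, which activates Aurora A on the spindle, had 8.08 and 7.64 FPKM in CD44hi and 2.16 FPKM in CD44lo cells of Dusp2KO mice, against 5.34 and 4.64 FPKM in CD44hi and 1.05 FPKM in CD44lo cells of WT mice (log2 fold change in CD44hi 0.57, SE 0.093, limma adjusted p = 0.0087). Ckap2, a microtubule-stabilising protein, had 7.50 and 8.07 FPKM in CD44hi and 3.86 FPKM in CD44lo cells of Dusp2KO mice, against 6.19 and 6.23 FPKM in CD44hi and 3.32 FPKM in CD44lo cells of WT mice (log2 fold change in CD44hi 0.28, SE 0.078, limma adjusted p = 0.039). Both were higher in Dusp2KO in each fraction. Kif22, a chromosome arm motor, had 5.96 and 5.48 FPKM in CD44hi and 2.71 FPKM in CD44lo cells of Dusp2KO mice, against 4.86 and 4.80 FPKM in CD44hi and 1.97 FPKM in CD44lo cells of WT mice. Its difference of 0.20 (SE 0.083) did not pass, and neither did that of the spindle assembly factor Nusap1 (0.24). The largest rise of the group was that of Kif11, the motor that separates spindle poles (0.90), followed by the motor Kif20b (0.69), the hyaluronan receptor and spindle protein Hmmr (0.68), the midzone motor Kif20a (0.66), the chromokinesin Kif4 (0.64), Kif15, which acts beside Kif11 (0.61), Ckap2l (0.54), the microtubule depolymerase Kif2c (0.44) and the centralspindlin motor Kif23 (0.39).

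In the kinetochore and spindle checkpoint group, 11 of 13 genes rose, 1 fell and 1 did not pass, with a median of 0.60. Cenpe, among the 11, reached the filter only with the Dusp2KO CD44hi libraries. The fall was that of Cenpa, the histone H3 variant that marks centromeres. Cenpa had 2.63 and 2.72 FPKM in CD44hi and 2.88 FPKM in CD44lo cells of Dusp2KO mice, against 4.10 and 3.64 FPKM in CD44hi and 2.40 FPKM in CD44lo cells of WT mice. The CD44hi groups did not overlap (log2 fold change -0.41, SE 0.091, limma adjusted p = 0.022). Bub3, a checkpoint adaptor that also has functions outside mitosis, had 20.7 and 21.0 FPKM in CD44hi and 23.3 FPKM in CD44lo cells of Dusp2KO mice, against 21.3 and 20.9 FPKM in CD44hi and 18.9 FPKM in CD44lo cells of WT mice. Its CD44hi libraries overlapped (log2 fold change -0.01, SE 0.061, limma adjusted p = 0.88). Bub1b, the checkpoint protein BUBR1, had 16.6 and 16.0 FPKM in CD44hi and 4.56 FPKM in CD44lo cells of Dusp2KO mice, against 13.1 and 12.1 FPKM in CD44hi and 4.79 FPKM in CD44lo cells of WT mice (log2 fold change in CD44hi 0.35, SE 0.073, limma adjusted p = 0.018).

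All 4 genes of the NDC80 complex, which binds microtubule ends, rose. Spc24 had 11.4 FPKM in both CD44hi libraries and 3.57 FPKM in CD44lo cells of Dusp2KO mice, against 6.77 and 6.82 FPKM in CD44hi and 1.80 FPKM in CD44lo cells of WT mice (log2 fold change in CD44hi 0.67, SE 0.073, limma adjusted p = 0.0027). Nuf2 was at 0.63, Spc25 at 0.60 and Ndc80 itself at 0.47. The kinetochore motor Cenpe (0.83), the checkpoint kinases Bub1 (0.78) and Ttk (0.64), and Mad2l1 (0.51), which encodes the checkpoint inhibitor MAD2, also rose. So did the chromosomal passenger genes Birc5, encoding survivin (0.67), and Cdca8, encoding borealin (0.30).

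Of the 2 cytokinesis genes, Ect2 rose and Racgap1 did not pass. Ect2, which activates RhoA at the cell equator, had 4.41 and 4.42 FPKM in CD44hi and 1.30 FPKM in CD44lo cells of Dusp2KO mice, against 3.07 and 2.65 FPKM in CD44hi and 1.26 FPKM in CD44lo cells of WT mice (log2 fold change in CD44hi 0.49, SE 0.095, limma adjusted p = 0.015). Racgap1, the centralspindlin partner of Kif23, had 10.1 and 9.95 FPKM in CD44hi and 5.44 FPKM in CD44lo cells of Dusp2KO mice, against 8.57 and 9.79 FPKM in CD44hi and 6.25 FPKM in CD44lo cells of WT mice (log2 fold change in CD44hi 0.12, SE 0.084, limma adjusted p = 0.34).

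All 9 genes of mitotic chromosome structure rose, with a median of 0.56. Mki67, which coats mitotic chromosomes and is used as a proliferation marker, had 13.7 and 13.3 FPKM in CD44hi and 0.491 FPKM in CD44lo cells of Dusp2KO mice, against 5.66 and 3.84 FPKM in CD44hi and 0.351 FPKM in CD44lo cells of WT mice. On this log scale its difference in CD44hi was the largest of the 53 (log2 fold change 1.35, SE 0.150, limma adjusted p = 0.0028), and the WT libraries were further apart from each other than the Dusp2KO libraries. Top2a, the topoisomerase that untangles sister DNA, had 35.5 and 37.2 FPKM in CD44hi and 7.19 FPKM in CD44lo cells of Dusp2KO mice, against 18.9 and 17.4 FPKM in CD44hi and 5.51 FPKM in CD44lo cells of WT mice (log2 fold change in CD44hi 0.97, SE 0.071, limma adjusted p = 0.00088). Subunits of condensin, the ring that compacts chromosomes, differed in size of change. Smc4 had 77.5 and 78.5 FPKM in CD44hi and 56.1 FPKM in CD44lo cells of Dusp2KO mice, against 62.1 and 59.7 FPKM in CD44hi and 88.7 FPKM in CD44lo cells of WT mice (log2 fold change in CD44hi 0.35, SE 0.062, limma adjusted p = 0.011). Ncapd2 had 28.1 and 27.0 FPKM in CD44hi and 12.8 FPKM in CD44lo cells of Dusp2KO mice, against 23.2 and 22.4 FPKM in CD44hi and 14.5 FPKM in CD44lo cells of WT mice (log2 fold change in CD44hi 0.26, SE 0.063, limma adjusted p = 0.027). These were the 2 genes of the group that were lower in Dusp2KO than in WT within CD44lo. The other condensin genes Ncapg, Smc2 and Ncaph rose by 1.10, 0.88 and 0.41, the chromatin phosphatase subunit Cdca2 by 0.56, and Cdca5, encoding the cohesion factor sororin, by 0.47.

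**Figure D3:**
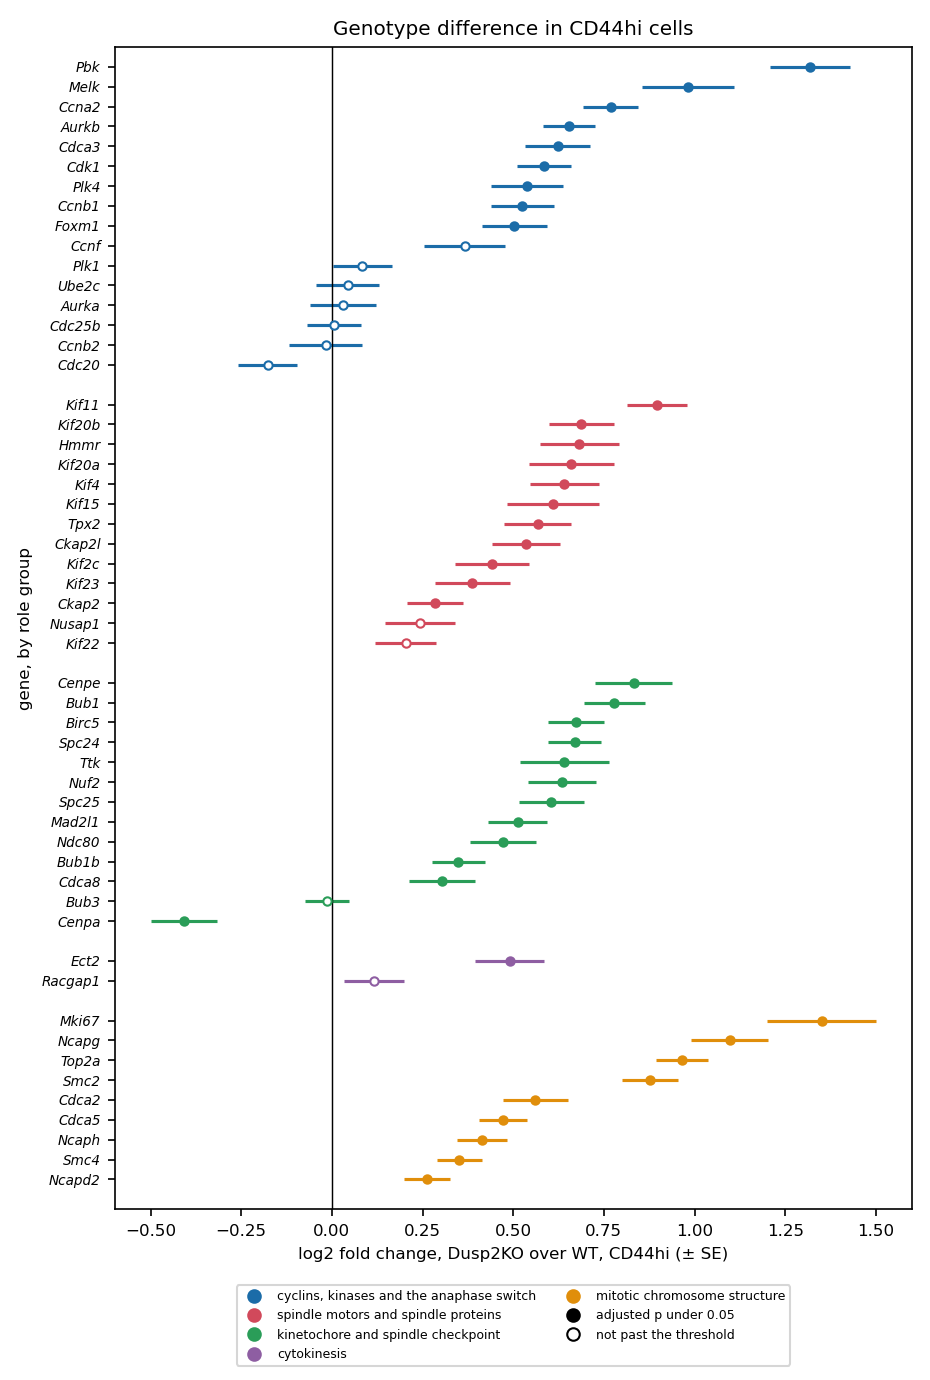
Log2 fold change of Dusp2KO over WT in CD44hi cells with its standard error (x axis, from 2 against 2 libraries) for each member (rows, by role group). Filled points passed an adjusted p of 0.05. They lie right of 0 except Cenpa at -0.41, and Mki67 at 1.35 and Pbk at 1.32 lie farthest right.

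Other lists of cell cycle genes, which share libraries with the members and so are no independent check, were counted the same way in CD44hi, where 26.7% of all genes were called, 12.9% higher and 13.8% lower. Of 74 further G2 and mitosis genes 61 were tested, of which 39 rose and 1 fell, with a median of 0.36. The largest rises were those of Ncapg2, a subunit of condensin II (1.01), and Kntc1, which recruits dynein to kinetochores (0.94), and the fall was that of the kinetochore gene Cenpt (-0.27). A list for S phase held 37 genes, of which 28 rose, with a median of 0.37, led by Rrm2, a subunit of ribonucleotide reductase (1.51), and the replication checkpoint gene Clspn (0.99). Of 21 transcription factor and MuvB genes that act on cell cycle promoters 19 were tested, of which 6 rose and 1 fell, with a median of 0.06. E2f3 (0.96) and Mybl2, which encodes B-MYB (0.91), rose most, and Lin37, a MuvB subunit, fell (-0.31). The members' median of 0.54 was above that of each of these lists, a difference for which no test was made.

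Within CD44lo the genotypes were compared as 1 library against 1, without a test. Here 41 of the 53 members were higher and 12 lower in Dusp2KO, where 48.4% of all tested genes were higher and 51.6% lower, and the members' median difference was 0.26, against -0.01 for all genes. Past 2-fold on the log2(FPKM + 1) scale were 2 members, Pbk (1.34) and Melk (1.04), both higher, where 1.68% of all genes were past that limit, 0.795% higher and 0.887% lower. In ratios of FPKM, 10 members were 2-fold or more higher in Dusp2KO, where 3.78% of all genes differed that much, 2.14% higher and 1.64% lower. Ccna2 had 161 reads in Dusp2KO CD44lo and 72 in WT CD44lo at unequal depth, that is a 4.77-fold higher FPKM, and Ckap2l had 83 and 40 reads, a 4.43-fold higher FPKM. Melk had 166 reads in Dusp2KO CD44lo and 94 in WT CD44lo, a 3.77-fold higher FPKM. The lowest member in both libraries was Ccnb2, with 7 reads in Dusp2KO CD44lo and 14 in WT CD44lo, which is near the floor of 3 reads. Of the 41 members that rose in CD44hi, 32 were also higher and 9 lower in Dusp2KO within CD44lo. Differences across all tested genes followed gene length in the opposite direction to CD44hi (Spearman rho = -0.33 over 9688 gene symbols), as they did across the members (-0.39), and the part of gene length in the CD44lo values was not tested.

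By role, the CD44lo differences were as follows, with no test between the groups. The cyclin and kinase group had 13 of 16 genes higher with a median of 0.41. The kinetochore and checkpoint group had 10 of 13 higher with a median of 0.33, and the spindle group 10 of 13 with a median of 0.18. Chromosome structure genes had 7 of 9 higher with a median of 0.14, and of the 2 cytokinesis genes 1 was higher and 1 lower with a median of -0.07. Mki67 differed by 0.14 in CD44lo and by 1.35 in CD44hi.

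A test of the difference between the fractions called 4 members (genotype by fraction interaction, limma), all with a larger difference in CD44hi, where 4.22% of all genes were called, 2.73% in that direction and 1.49% in the other. Smc4 stood at 0.35 in CD44hi and at -0.65 in CD44lo (interaction 1.00, SE 0.107, adjusted p = 0.025). Smc2 stood at 0.88 and 0.03 in these fractions (interaction 0.85, SE 0.134, adjusted p = 0.036). Both encode the paired ATPase subunits that condensin I and condensin II share. Kif20b stood at 0.69 in CD44hi and -0.33 in CD44lo (interaction 1.02, SE 0.153, adjusted p = 0.033), and Top2a at 0.97 and 0.33 (interaction 0.64, SE 0.123, adjusted p = 0.046). The Top2a call was lost when the trend on gene length was removed (adjusted p = 0.087) and without either Dusp2KO CD44hi library (adjusted p = 0.062 and 0.085). With the length trend removed those of Smc4, Smc2 and Kif20b held (adjusted p = 0.014, 0.026 and 0.026). Without the variance trend the calls of Smc2 and Top2a were lost (limma adjusted p = 0.054 and 0.069). For Mki67 the interaction of 1.21 did not pass (SE 0.259, adjusted p = 0.054). The count of 4 is unstable, at 0 with no filter on low values, where 39 of all genes were called. With a pseudocount of 0.1 it was 7, of which 4 were larger in CD44hi and 3 in CD44lo, where 453 of all genes were called. With the replicate block it was 13, of which 12 were larger in CD44hi and 1 in CD44lo, where 1565 of all genes were called. Leaving out either WT CD44hi library also raised the count, with more calls over all genes as well.

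**Figure D4:**
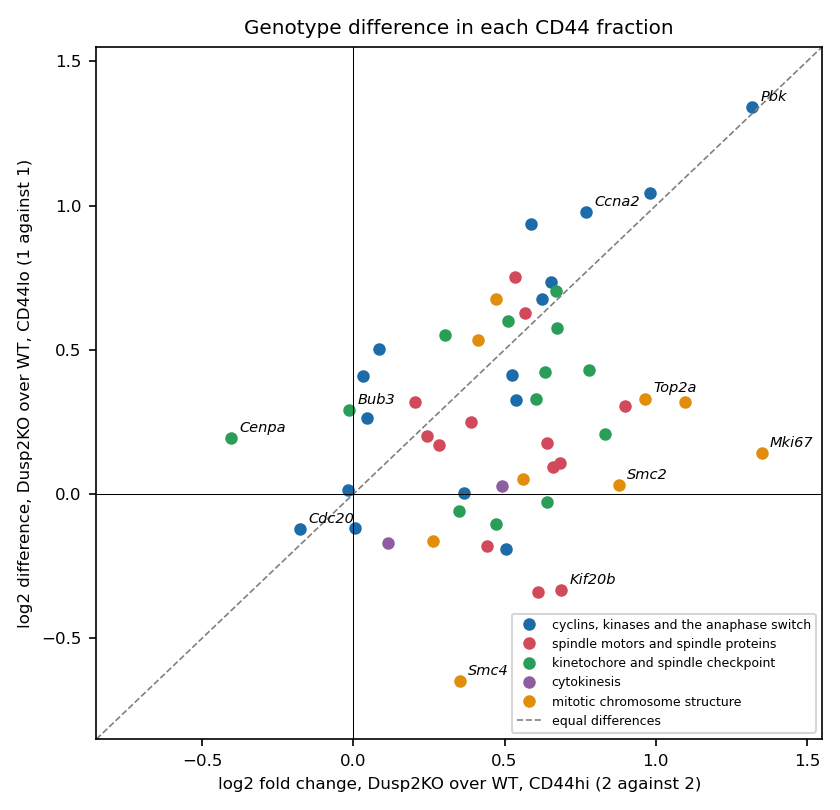
Genotype difference of each member in CD44hi (x axis, 2 against 2 libraries) and in CD44lo (y axis, 1 against 1), both as log2(FPKM + 1) Dusp2KO minus WT, coloured by role group. On this scale Pbk lies close to the dashed line of equal differences, at 1.32 and 1.34. Its ratios of FPKM were unequal, at 2.85 in CD44hi and 6.65 in CD44lo, where the WT library had 34 reads. Smc4 and Kif20b lie below the line, right of 0 on the x axis and under 0 on the y axis.

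The second comparison set CD44hi against CD44lo within each genotype, with 2 libraries against 1, and the lone CD44lo library was assumed to vary like the CD44hi pairs. In Dusp2KO, 50 of the 53 members were higher in CD44hi and none lower, where 40.1% of all genes were called, 23.6% higher and 16.5% lower. In WT, 48 were higher and 1 lower, where 26.1% of all genes were called, 15.4% higher and 10.7% lower. The median log2 fold change of the members was 1.43 in Dusp2KO and 1.15 in WT, against 0.05 in each for all genes. In ratios of FPKM the members ran from 0.895 to 27.4 in Dusp2KO with a median of 3.69, and from 0.687 to 21.4 in WT with a median of 3.29. These counts and medians include the 15 members below 1 FPKM in both CD44lo libraries. They also include Ccna2, Plk1, Cdca3, Ckap2l, Kif15 and Ncapg, whose CD44lo mean was below 1 FPKM. All of these passed the filter through the CD44hi libraries alone, so the counts and medians are in part set by it. Differences followed gene length with Spearman rho = 0.34 in Dusp2KO and -0.09 in WT over all tested genes, and with that trend removed 51 members were higher and 1 lower in Dusp2KO, and 48 higher and 1 lower in WT. Bub3 was the member lower in Dusp2KO CD44hi after that removal.

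Every gene of the cyclin and kinase group was higher in WT CD44hi than in WT CD44lo by the test (16 of 16, median 1.62), and 15 of 16 were in Dusp2KO (median 1.63), where Aurka stood at 0.33 and did not pass (limma adjusted p = 0.055). Of this group Ccna2, Ccnb2, Ccnf, Cdca3, Plk1 and Ube2c passed the filter through the CD44hi libraries alone. Their steps, and the counts and medians of the group, were therefore in part set by it. Ccna2 was the member with the largest step in WT (log2 fold change 2.64, SE 0.093, limma adjusted p = 3.7e-05), and in Dusp2KO its step was 2.44. Ube2c and Plk1, which showed no called genotype difference, were among the larger steps in both genotypes, at 2.02 and 1.64 in Dusp2KO and at 2.24 and 2.06 in WT. Ccnb2 stood at 1.79 in Dusp2KO and 1.83 in WT. Cdc20 (0.70 in Dusp2KO, 0.76 in WT) and Cdc25b (0.43 and 0.31) had smaller steps and already stood at 4.42 FPKM or more in both CD44lo libraries.

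Chromosome structure genes split in this comparison. Mki67 had the largest step of all members in Dusp2KO (log2 fold change 3.28, SE 0.183, limma adjusted p = 0.00012), and in WT it stood at 2.07. All 9 were higher in Dusp2KO CD44hi (median 1.39). Of these, Mki67, Ncapg and Cdca2 passed the filter through the CD44hi libraries alone, so the counts and medians of the group were in part set by it. In WT 8 were higher (median 1.15) and Smc4 was lower in CD44hi than in CD44lo (log2 fold change -0.53, SE 0.075, limma adjusted p = 0.0038), whereas in Dusp2KO it was higher in CD44hi (0.47). Top2a stood at 2.19 in Dusp2KO and 1.55 in WT, and Cdca5 at 1.63 and 1.84.

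In the spindle group 13 of 13 genes were higher in Dusp2KO CD44hi (median 1.47) and 11 of 13 in WT CD44hi (median 1.11), where Kif20b (0.15) and Kif15 (0.52) did not pass. Most of the group, namely Kif11, Kif15, Kif20a, Kif23, Kif2c, Kif4, Nusap1, Hmmr and Ckap2l, passed the filter through the CD44hi libraries alone. These counts and medians were therefore in part set by it. In the kinetochore group 11 of 13 were higher in each genotype, with medians of 1.32 in Dusp2KO and 1.09 in WT. The same limit holds here for Cenpe, Nuf2 and Ttk. Bub3 passed in neither, at -0.15 in Dusp2KO and 0.15 in WT, Cenpa passed in WT (0.52) and not in Dusp2KO (-0.08), and Ndc80 passed in Dusp2KO (0.89) and not in WT (0.31). Both cytokinesis genes were higher in CD44hi, with Ect2 at 1.24 in Dusp2KO and 0.77 in WT and Racgap1 at 0.77 and 0.49. The interaction test given above compares these steps between genotypes, and among these genes it called Kif20b and none of Kif15, Cenpa, Bub3, Ndc80, Ect2 and Racgap1.

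**Figure D5:**
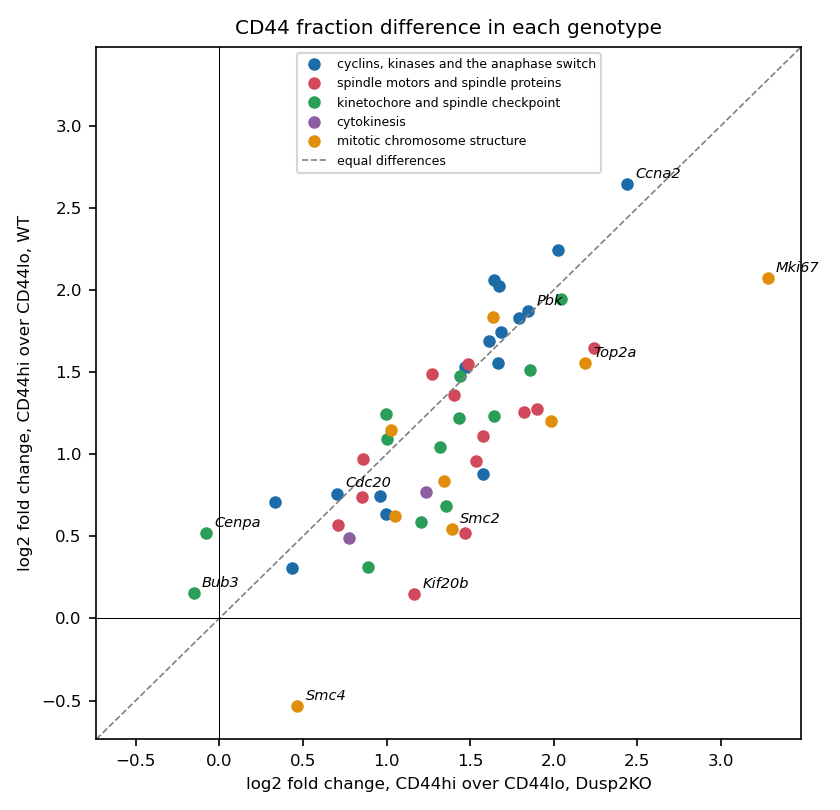
Log2 fold change of CD44hi over CD44lo in Dusp2KO (x axis) and in WT (y axis) for each member, coloured by role group, each from 2 libraries against 1. Mki67 lies farthest right at 3.28, Ccna2 highest at 2.64, and Smc4 is the member below 0 in WT, at -0.53.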

How the data were processed

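Processed values of 6 RNA-seq libraries were used. The deposited values are FPKM, made by the authors. The submitters' processing notes name HISAT2 2.0.5 and, giving neither a role, the builds mm39 and hg38. The sources used here do not give the counter, the annotation or any filter. Per the labels' protocols, RNA was extracted with Trizol. All 6 columns were matched to sample titles.

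The members and gene lists were chosen with earlier results of these data known. Whole reads were recovered as the smallest numbers that fit the FPKM steps, which all 16220 rows above 0 in 2 or more libraries did within 1e-06 reads, and 3 of 2000 perturbed rows. For 1902 rows with a value above 0 in a single library that value was set to 1 read. Depths, floors (3 reads, counting error only) and the voom alternative rest on them.

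Differences were tested with limma 3.58.1 (R 4.3.3) on log2(FPKM + 1), for 9691 rows with a mean of at least 1 FPKM, with a mean for each group (2 residual degrees of freedom), a variance trend and two-sided Benjamini-Hochberg adjustment at 0.05. The pipeline was tested on simulated data. Values in every library are given for the 3 most abundant genes of each role group, Mki67, Pbk and members called against the rest. Of other lists, up to 2 rises and 2 falls are named.

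Alternatives were pseudocounts of 0.1 and 0.5, no filter or a minimum of 5 FPKM, median-ratio, quantile and total scaling, no trend, robust variance, a replicate block, voom on recovered reads, a loess on gene length (span 0.5), each library left out, the CD44hi libraries alone, an additive model and a 1.5-fold limit. A quasi-likelihood count test was planned and not run, since the deposited values are not counts. Chromosomes and promoters come from RefSeq tables of GRCm38.p6, matched by symbol.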

Additional observations from a re-analysis of the deposited data

Results flagged for a closer look

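A test of the genotype by fraction interaction called 4 members, that is, their difference between Dusp2KO and WT was larger in CD44hi than in CD44lo (limma, adjusted p under 0.05). Over all genes tested 4.22% were called, 2.73% in that direction and 1.49% in the other. The interaction was 1.00 log2 units for Smc4, 0.85 for Smc2, 0.64 for Top2a and 1.02 for Kif20b. Over the alternatives that could be fitted, the adjusted p ran from 2.9e-05 to 0.066 for Smc4, from 0.00034 to 0.13 for Smc2, from 0.0040 to 0.14 for Top2a and from 0.00098 to 0.12 for Kif20b, each highest with no filter on low values and lowest with the replicate block. The direction was the same in every fit. The CD44lo side of each is 1 library per genotype.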

How the results depend on the processing

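Members called in CD44hi for Dusp2KO against WT numbered 42, with 2586 calls over all genes. They were 0 with no filter on low values (46 of 58 at an unadjusted p under 0.05, 2 of 18122 rows called). The additive model of genotype and fraction called 24, all among the 42, with 1008 calls over all genes. At a minimum mean of 5 FPKM 17 of the 22 members left were called, with 2037 calls over all genes. With that minimum 20 were called for the fraction step in Dusp2KO (2828 over all genes) and 21 in WT (1940), where fewer members were tested. The interaction count of 4 came with 409 calls over all genes, and such calls are given in brackets here. It was 7 with a pseudocount of 0.1 (453), 9 with median-ratio scaling (684) and 8 with quantile normalization (432). It was 2 without the variance trend (117) and 0 with no filter (39). With no filter 26 of 58 members and 3933 of 18122 rows had an unadjusted p under 0.05. On recovered reads limma voom called 6. A planned quasi-likelihood count test was not run. Leaving out each library in turn gave 29 to 44 members for the genotype step in CD44hi, 49 to 51 for the fraction step in Dusp2KO, 49 to 50 in WT and 4 to 19 for the interaction. Of the 42, 30 and 29 were kept without Dusp2KO CD44hi replicate 1 and replicate 2, and none changed sign. The 2 members past 2-fold in CD44lo were 7 and 5 with pseudocounts of 0.1 and 0.5, 6 with libraries rescaled to 1000000, and 12 at 1.5-fold. Deviations of the replicate 1 libraries from their group means correlated with r = 0.02 between the CD44hi groups. With 2 libraries in each group the deviations of replicate 2 mirror these. The value therefore cannot show whether same-numbered libraries were paired. With the replicate block the counts were 43, 51 and 49 for the genotype step and the fraction steps in Dusp2KO and WT. For the interaction the block gave 13, of which 12 were larger in CD44hi and 1 in CD44lo, with 1565 calls over all genes. The count of 19 for the interaction likewise came with more calls over all genes. Bub3, not called, turned to 0.0166 with quantile normalization, 0.0314 with rescaled libraries and 0.0872 in the additive model, and Cenpa in the Dusp2KO fraction step to 0.0267 with rescaled libraries, which moved the median of all genes there to 0.18. The other 58 alternative counts stayed within 1.5 times. Apart from those that follow from fewer genes or libraries, the cause of these changes was not tested. Low counts limit the CD44lo values of the lowest member, Ccnb2, which had 7 reads in Dusp2KO and 14 in WT.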
